A study of Mus musculus with 12 samples.

Results

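The peaks with the highest level of 5-methylcytosine (5mC) in the embryonic mouse cortex were taken from a table of 55085 5mC peaks. They were selected on the measured values themselves, as the rows in which the mean of the 3 deposited levels, those of proliferating progenitors (PP), differentiative progenitors (DP), and neurons, was 7.5 or more. This choice gave 576 peaks, or 1.05% of the table. Their levels, and the differences of these levels between cell types, are therefore a description. The comparisons below rest on what the choice did not use, namely position, 5-hydroxymethylcytosine (5hmC), and expression. Width and sequence did not enter the rule directly. Both can bear on a level, which counts reads over a whole peak pulled down by its modified cytosines, and they are descriptions too.

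The cells came from the cortex of E14.5 embryos that were double heterozygous for the reporters Btg2-RFP and Tubb3-GFP. PP carried neither fluorescence, DP were RFP+ and GFP-, and neurons were GFP+ with or without RFP, so that both reporters were present in the genome of all 3 cell types. DNA was barcoded by cell type, combined, and pulled down with an antibody against 5mC (MeDIP) or 5hmC (hMeDIP), which gave 12 samples, 6 immunoprecipitated and 6 of unenriched input. A level is log2 of the mean normalized reads over a peak, with 1 value per cell type averaged by the authors over biological replicates. Neither levels per replicate nor counts were deposited in the tables used here, hence the depth behind a value is not known and replicate error cannot be stated. The authors' own fold changes and p-values between cell types were not used, and no difference below carries a test. The expression columns followed the labels of the populations, since all 12 measured PP markers of 14, all 11 DP markers of 12, and all 11 neuron markers of 14 were highest in their own cell type. Of 27 markers of other cortical cell types 18 were measured, with summed expression scores of 2734, 6023, and 45891 in PP, DP, and neurons. Of the 18, 13 were lower in neurons than in PP and 5 were higher, namely Reln of Cajal-Retzius cells at 36007 in neurons, the interneuron genes Dlx1 at 3961, Gad1 at 3055, and Dlx2 at 2227, and Lhx5 at 394. Sox10, an oligodendrocyte lineage factor, was listed at 0 in neurons.

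DNA methyltransferases place 5mC mostly on cytosines followed by guanine (CpG), and Tet enzymes oxidize it to 5hmC. In mammals most CpG outside of CpG islands carry 5mC, and in neurons 5hmC is abundant within gene bodies and at enhancers. An antibody pull-down reads how many modified cytosines a fragment carries together with how many fragments of that locus are present, and thus gives an enrichment and not a percentage of methylated molecules.

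Sequence could be read for the few peaks lying within promoter windows of RefSeq genes on GRCm38.p6, the assembly called mm10, each window spanning 250 bases before to 50 after a start site. Such a window overlapped 7 of the 576 highest peaks and held 4 of them whole, against 342 and 108 of all 5mC peaks. The 4 are shown because CpG are the sites that can carry 5mC, though the methylated share of these CpG was not measured here. They are given 5' to 3' on the plus strand, which is the strand of all 4 genes, with coordinates taken as 1-based, every CG in capitals, and only the bases before the start site.
Acacb, chr5:114165328-114165483: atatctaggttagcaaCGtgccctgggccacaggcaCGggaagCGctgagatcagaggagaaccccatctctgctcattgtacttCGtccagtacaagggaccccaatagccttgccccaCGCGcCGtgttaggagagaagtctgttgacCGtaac
Gm30283, within Apobec2, chr17:48423300-48423423: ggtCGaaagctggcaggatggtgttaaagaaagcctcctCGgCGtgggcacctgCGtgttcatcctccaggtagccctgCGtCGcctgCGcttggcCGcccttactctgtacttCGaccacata
Gm52397, within Myof, chr19:37985913-37986049: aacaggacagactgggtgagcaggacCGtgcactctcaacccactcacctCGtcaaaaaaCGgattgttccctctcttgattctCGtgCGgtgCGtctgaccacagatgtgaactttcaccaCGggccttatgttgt
Gm33473, upstream of Gpr183, chr14:121994402-121994479: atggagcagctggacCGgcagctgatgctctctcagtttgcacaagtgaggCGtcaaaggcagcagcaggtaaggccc

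Over the whole peak, the stretch at Gm30283 held 9 CpG, or 7.26 per 100 bp. The peak at Gm33473, of which the last bases lie past the start site and are not printed, also held 9, or 7.14 per 100 bp. Gm52397 held 7, or 5.11 per 100 bp, and Acacb, an acetyl-CoA carboxylase, 8, or 5.13 per 100 bp. All 4 were above the median of 3.92 per 100 bp of the 108 peaks lying whole in a window, and both Gm30283 and Gm33473 were above the 90th percentile of 6.88. The motif CANNTG, which reads the same on both strands and is the letter code bound by basic helix-loop-helix factors, occurred in 3 of the 4 (3 matches at Gm33473, 1 at Gm30283, 1 at Gm52397, and 0 at Acacb) and in 55.6% of the 108 peaks. The mean 5mC levels were 7.86 at Gm30283, 7.76 at Gm52397, 7.73 at Gm33473, and 7.56 at Acacb.

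Among the 576 peaks, 7 had a mean level of 10 or more, 7 lay between 9 and 10, 130 between 8 and 9, and 432 between 7.5 and 8. The median level was 7.79, 7.81, and 7.69 in PP, DP, and neurons, as compared with 5.06, 5.05, and 4.87 over all peaks. All 3 cell types were at 7.5 or more in 420 peaks, whereas 156 were lower in at least 1 cell type. The peaks just inside the threshold were those upstream of Bbs7, Ube2u, and Gm7831, each at 7.502, and those just outside were upstream of Klf14 and Cdk1, both at 7.499, and inside Lman2, at 7.498.

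Coordinates are those of the mm10 build. The highest peak, inside Gm11400 (chr11:3150765-3150877), reached 12.11, 12.10, and 12.21 in PP, DP, and neurons. Gm11400 is a gene model within Sfi1, which encodes a centrosomal protein. The second lay 5595 bp downstream of the start of AY036118 (chr17:39843165-39843299), with 11.40, 11.46, and 11.40 in PP, DP, and neurons. The third (chr4:70378137-70378238) lay inside Cdk5rap2, a centrosomal gene known for microcephaly, at 10.81, 10.82, and 10.91 in PP, DP, and neurons. Upstream of 3110070M22Rik, a peak within Tmem267 (chr13:119488872-119489008) had 10.85, 10.77, and 10.72 in PP, DP, and neurons. Further peaks of the Sfi1 region, upstream of Gm11399 and inside Sfi1, followed with mean levels of 10.64 and 10.44. The remainder of the 10 highest lay near Gm11668 at 10.38, Gm6020 at 9.61, Dpy19l1 at 9.47, and Gm15726 at 9.34, the latter being within Mid1 on chromosome X. In none of the 10 did the cell types differ by 1.5-fold. Copy number and the signal of the input libraries were not analysed at any of the 10, and their part in these levels was not tested.

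**Figure D1:**
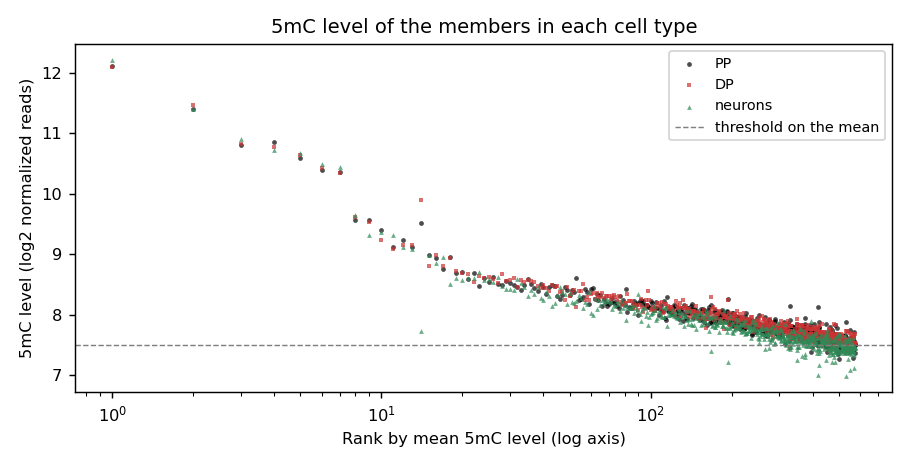
5mC level in log2 normalized reads of each of the 576 peaks (y axis) against its rank by mean level (x axis, log scale), with a point each for PP, DP, and neurons and the threshold of 7.5 as a dashed line. At 563 of the 576 peaks the 3 points span less than 1.5-fold and at 13 they span more, the widest being Pak3, with neurons at 7.73 and PP and DP at 9.52 and 9.90.

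The 576 peaks were narrower than most. Their width had a median of 126.5 bp (range 100 to 290), as compared with 132 bp in the 1203 peaks of the next lower band, with a mean level from 7.0 to below 7.5, and 144 bp over all peaks. Since a level counts reads over a whole peak, it was also expressed per 100 bp, and 449 of the 576 peaks were among the same number of highest peaks on that scale.

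Position was annotated by the authors relative to the nearest start site (TSS). Of the 576 peaks, 252 lay inside their nearest gene, or 43.8%, next to 44.6% in the next lower band and 40.2% over all peaks. A further 234 lay upstream, 84 downstream, 4 over the start, and 2 over the end of a gene. Within 1 kb of a TSS were 32 peaks, or 5.56%, compared with 3.41% of the next band and 2.99% of all peaks, whereas within 5 kb the shares were 18.4%, 18.04%, and 16.04%. Closest to a TSS were peaks over the starts of the gene models Gm6505 at 24 bp, Gm12321 at 27 bp, and Gm1840 at 41 bp, with mean levels of 7.54, 7.76, and 7.66. Among the farthest away were those near Mir1907 at 316238 bp and Cox7c at 258869 bp, with mean levels of 8.27 and 8.06. The span of a RefSeq gene held 461 of the peaks, or 80.0%, compared with 73.1% of all peaks, and the span of a pseudogene 20, or 3.47%, compared with 1.68%. Per chromosome, the share of 5mC peaks that were among the highest ran from 0.69% on chromosome 18 to 1.47% on chromosome 8. Without the peaks of the clusters described below, chromosome 8 had 1.26%, next to 1.25% on chromosome X.

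**Figure D2:**
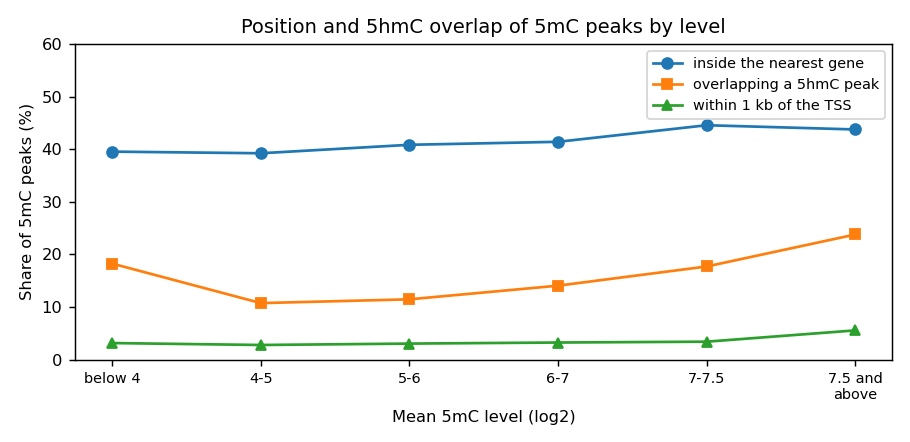
Share of 5mC peaks in percent (y axis) that lie inside their nearest gene, overlap a 5hmC peak, or lie within 1 kb of a TSS, in 6 bands of mean 5mC level (x axis, log2). Overlap with 5hmC is 18.2% below a level of 4, 10.7% between 4 and 5, and 23.8% in the highest band.

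How levels differed between cell types was drawn from the same values that chose the peaks, and is given as a description from which nothing is read about these peaks against all others. Differences were centred on the median of all peaks, which was -0.00 for DP minus PP, -0.18 for neurons minus DP, and -0.17 for neurons minus PP on the log2 scale. The centred median of the 576 peaks was 0.03 from PP to DP, 0.07 from DP to neurons, and 0.08 from PP to neurons, and without the centring it was 0.02, -0.11, and -0.09. The standard deviation across the peaks was 0.13, 0.18, and 0.20 for these pairs, as opposed to 0.37, 0.47, and 0.52 over all peaks, and it was lower in each band of higher level over the whole table. DP had the highest uncentred level in 282 of the 576 peaks (49.0%), PP in 222 (38.5%), and neurons in 72 (12.5%), while over all peaks the shares were 41.1%, 42.6%, and 16.3%.

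A centred difference of at least 1.5-fold was counted as a change, without a test. From PP to DP, 0 of the 576 peaks were higher and 1 was lower, where of all peaks 4.60% were higher and 5.44% lower. From DP to neurons, 0 were higher and 3 lower, compared with 5.12% and 9.36% of all peaks. From PP to neurons, 2 were higher and 4 lower, compared with 5.00% and 10.2% of all peaks. Altogether, 8 of the 576 changed in at least 1 pair. The next lower band was likewise below these shares, with 0 higher and 0 lower peaks of 1203 between PP and DP, 1 and 13 between DP and neurons, and 1 and 21 between PP and neurons. Replicate values being absent, the part that read number has in the spread was not tested.

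**Figure D3:**
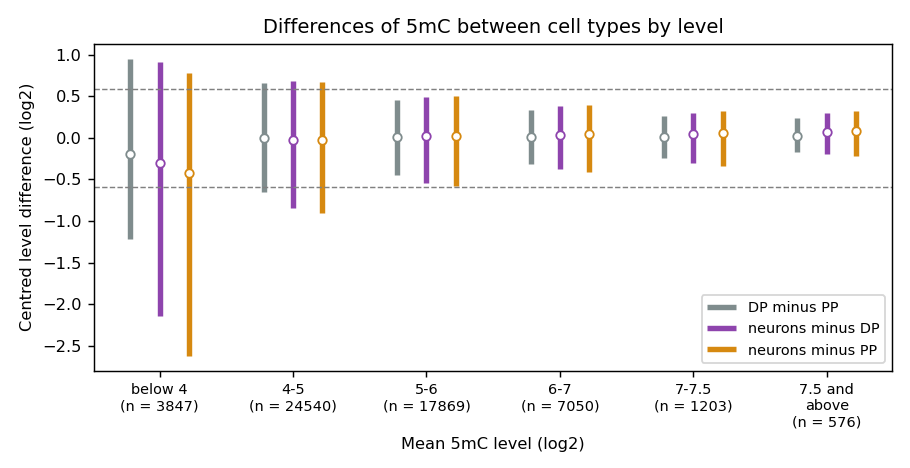
Centred difference of 5mC levels between pairs of cell types (y axis, log2) in 6 bands of mean level (x axis, log2, with the number of peaks), where bars run from the 5th to the 95th percentile, circles are medians, and dashed lines mark 1.5-fold. In the highest band the bars run from -0.17 to 0.24 for DP minus PP, -0.20 to 0.30 for neurons minus DP, and -0.22 to 0.32 for neurons minus PP.

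The largest difference was at a peak 35536 bp upstream of Pak3, a p21-activated kinase of dendritic spines, on chromosome X (chrX:143483006-143483106). Its 5mC level was 9.52, 9.90, and 7.73 in PP, DP, and neurons, a centred difference of -1.99 from DP to neurons. The overlapping 5hmC peak had -0.05, 8.57, and -0.05 in PP, DP, and neurons. Both of the values near 0 were the lowest of their columns in the 5hmC table, a value shared by 105 peaks in PP and 4 in neurons. With a width of 100 bp this was also the narrowest of the 576 peaks. The expression score of Pak3 was 3654, 5420, and 6114 in PP, DP, and neurons.

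A different order held inside Atf2, which encodes a transcription factor of the CREB family (chr2:73867855-73867988). There, 5mC was 8.26, 8.25, and 7.22 in PP, DP, and neurons, while the overlapping 5hmC peak was at 0.91, 4.56, and 6.37. The value of 0.91 was close to the lowest 5hmC level in PP, -0.05. A peak lay 72221 bp downstream of the start of Smad2, an effector of TGF-beta signalling. There, 5mC was 8.16, 8.30, and 7.41, and 5hmC was 2.79, 4.19, and 5.63. Another peak, 43280 bp upstream of Skil, a repressor of the same pathway, lay within a different gene, Prkci (chr3:31051718-31051840). Its 5mC was 8.13, 7.72, and 7.01, and its 5hmC was 5.73, 6.02, and 6.61. Upstream of Egfem1, 5mC was 7.88, 7.73, and 6.98, and 5hmC was 6.52, 6.72, and 6.95. At these 4 loci 5mC was lowest and 5hmC highest in neurons. Smad2 and Egfem1 were named after their values were seen.

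The only peak at least 1.5-fold lower in DP than in PP was upstream of Ppan, a ribosome biogenesis gene (chr9:20884262-20884396), where 5mC was 8.15, 7.46, and 7.48 in PP, DP, and neurons and no 5hmC peak overlapped. The next largest, short of 1.5-fold, was inside Btg2, the antiproliferative gene of the DP reporter, at 254 bp from its TSS. It had 8.61, 8.13, and 8.22, while the expression score of Btg2 was 19335, 38556, and 7484. Higher in neurons than in PP were a peak upstream of Gm14508, within Cit, with 7.27, 7.68, and 7.69, and a peak inside Sfi1 with 7.39, 7.64, and 7.90. Short of 1.5-fold were the largest positive differences from PP to DP, at Gpam, a glycerol-3-phosphate acyltransferase, with 7.41, 7.83, and 7.43, and again at Gm14508. The same was true from DP to neurons for Col6a3, a chain of collagen VI, with 7.91, 7.77, and 8.07, and for Cd2ap, an adaptor of the actin cytoskeleton, with 8.05, 7.77, and 8.08.

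The 5hmC libraries were not used in the choice of peaks. A 5hmC peak overlapped 137 of the 576 peaks by at least 1 bp, or 23.8%, compared with 17.7% in the next lower band and 12.2% over all 5mC peaks. At these 137 peaks the median 5hmC level was 4.79, 4.85, and 5.11 in PP, DP, and neurons, next to 4.64, 4.75, and 5.06 at all 5mC peaks with an overlap. The 5hmC level was above the median of the whole 5hmC table, 4.67, at 83 of the 137 (60.6%), compared with 53.4% of all overlapped 5mC peaks. It exceeded the 5mC level at 2 (1.46%), compared with 40.2% of all overlapped peaks, a contrast set by the choice of peaks with high 5mC. Centred in the same way, 5hmC was at least 1.5-fold higher in neurons than in PP at 50 of the 137 (36.5%) and lower at 4 (2.92%), whereas at all 6727 overlapped 5mC peaks the shares were 42.9% and 3.27%. From DP to neurons 35 were higher (25.5%) and 12 lower (8.76%), against 34.0% and 3.48%. From PP to DP 21 were higher (15.3%) and 4 lower (2.92%), against 21.4% and 3.31%. The 12 lower from DP to neurons included some at low 5hmC levels. Examples were Pak3, with 8.57 in DP and -0.05 in neurons, the lowest there, and Snord37, with 3.23 and 0.85. Others lay higher, such as Dpy19l1, with 6.58 and 3.86. The part of low levels in this share was not tested.

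Where 5mC was lower in neurons, 5hmC tended to be higher. Across the 137 peaks, the Spearman correlation between the centred differences of both marks from PP to neurons was -0.52, compared with -0.66 across the 213 such peaks of the next band and -0.51 across all 6727. From PP to DP it was -0.15 across the 137 peaks. These are descriptions across sites that share the same cells, and sites are not replicates. A negative centred 5mC difference with a positive centred 5hmC difference from PP to neurons was found at 50 of the 137 peaks (36.5%). The share was 51.5% at all overlapped peaks. The sign of the 5mC difference depends on the centring. Its median over the 576 peaks was 0.08 with centring and -0.09 without. The 5mC part also comes from the values that chose the peaks, so nothing is read from this contrast.

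**Figure D4:**
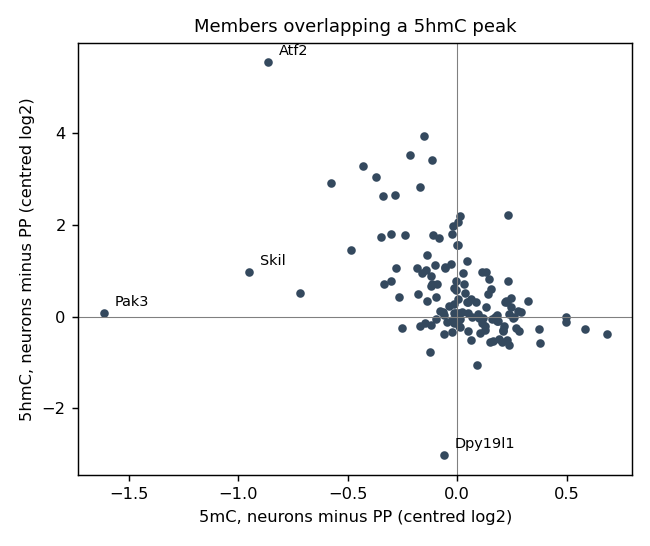
Centred difference between neurons and PP in 5hmC (y axis, log2) against that in 5mC (x axis, log2) at the 137 peaks that overlap a 5hmC peak, 1 point per peak. Atf2 has -0.87 in 5mC and 5.54 in 5hmC, Skil -0.95 and 0.96, Pak3 -1.62 and 0.08, and Dpy19l1 -0.06 and -3.02. The 5.54 of Atf2 rests on a 5hmC level of 0.91 in PP, close to the lowest there, -0.05.

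The highest 5hmC was at the Cdk5rap2 peak, with 10.42, 10.33, and 10.10 in PP, DP, and neurons. This locus was thus high in both marks, with its copy number and input signal not analysed. A peak upstream of Gm11400, within Sfi1, followed with 9.86, 9.75, and 9.66 in 5hmC and 7.29, 7.62, and 7.62 in 5mC. Inside Chit1, a chitinase gene, 5hmC was 7.93, 7.95, and 8.34 and 5mC was 8.07, 7.95, and 7.72. The latter 2 peaks lay in clusters described below. A 5hmC difference opposite in direction to that at Atf2 was seen 38970 bp upstream of Dpy19l1 (chr9:24542050-24542169), where 5hmC was 6.96, 6.58, and 3.86 in PP, DP, and neurons, while 5mC stayed within 9.33 and 9.56. Dpy19l1 was chosen here also for this difference, after its values were seen, and its expression score was 6122, 4479, and 25500 in PP, DP, and neurons.

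Neighbouring peaks were chained when at most 50 kb apart, a step taken after the values were seen. Of the 576 peaks, 556 stood in no chain of 3 or more and 20 fell into 3 clusters. Accordingly, 520 of the 546 nearest genes had 1 of the highest peaks, 22 had a pair, and 4 had 3, these being Chit1, Def8, Gm11400, and Sfi1. The genes named for the clusters below are those that the reporters or most of the peaks refer to.

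The first cluster spanned 61.0 kb on chromosome 11 (chr11:3125218-3186250), most of it within Sfi1, and 8 of its 13 5mC peaks were among the highest. The median level of these 13 was 7.63, compared with 4.67 in the nearest 20 peaks beyond it, which all lay on 1 side. The median of its 20 5hmC peaks was 6.76, compared with 4.68 in the nearest 20. Thus both marks were high, and 3 of the 10 highest 5mC peaks lay there. In this and the later clusters, the ends were set by peaks chosen for high 5mC. A 5mC median above that of the nearest peaks therefore follows in part from the choice and is a description. The 5hmC levels were not used in that choice. By cell type, the median 5mC level of the cluster was 7.39, 7.64, and 7.62 in PP, DP, and neurons.

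A second cluster spanned 56.3 kb on chromosome 1 (chr1:134078800-134135058) and began inside Btg2. Here 5 of 12 peaks were among the highest, 1 in Btg2, 1 upstream of Gm8618, and 3 in Chit1. The highest, in Chit1, had 8.96, 8.95, and 8.50 in PP, DP, and neurons. The 12 peaks had a median 5mC level of 5.94, compared with 5.22 in the 40 nearest peaks on both sides, and 17 5hmC peaks had 6.10, compared with 4.695 in the 40 nearest. The median 5mC level by cell type was 6.45, 5.87, and 6.09 in PP, DP, and neurons.

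The third cluster spanned 103.5 kb on chromosome 8 (chr8:123343054-123446594) and contained the whole of Tubb3, the neuronal tubulin gene of the other reporter. Of its 22 5mC peaks 7 were among the highest, nearest to Spire2, an actin nucleator, Tcf25, Mc1r, a melanocortin receptor, and Def8. The highest, upstream of Tcf25, had 8.49, 8.68, and 8.47 in PP, DP, and neurons. The 22 peaks had a median 5mC level of 7.09, compared with 5.73 in the 40 nearest peaks, whereas the 13 5hmC peaks had 4.72, compared with 4.68. By cell type, the 5mC medians were 7.19, 7.18, and 6.98 in PP, DP, and neurons.

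Thus 1 cluster contained Tubb3 and another began inside Btg2, the genes of the reporters that all cells carried. Windows of 10 consecutive 5mC peaks over the whole genome were ranked by the same levels that chose the peaks. Where the highest windows lie is therefore a description and no separate evidence. The 3 highest medians that did not overlap fell within or across these clusters, against a median of 4.97 of 54897 windows. They were 8.03 at Sfi1, 7.27 in a window that began within Tubb3, and 7.18 in a window of the chromosome 1 cluster that held peaks of Chit1 but lay outside Btg2 (chr1:134100929-134149577). Ranks count only windows left after any that overlapped a higher one was dropped. Windows running from Btg2 into the one at Chit1 were dropped in this way. Among those left, the window ending inside Btg2 (chr1:134025386-134078931) ranked 392nd at 5.77. For 5hmC the Sfi1 window ranked 1st at 7.13, a window just outside Btg2 (chr1:134080611-134107694) 4th at 6.35, the window across Btg2 15th at 5.99, and the highest at Tubb3 303rd at 5.28. The number of copies of these loci and the signal of the input libraries there were not analysed here, and their part in these levels was not tested.

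**Figure D5:**
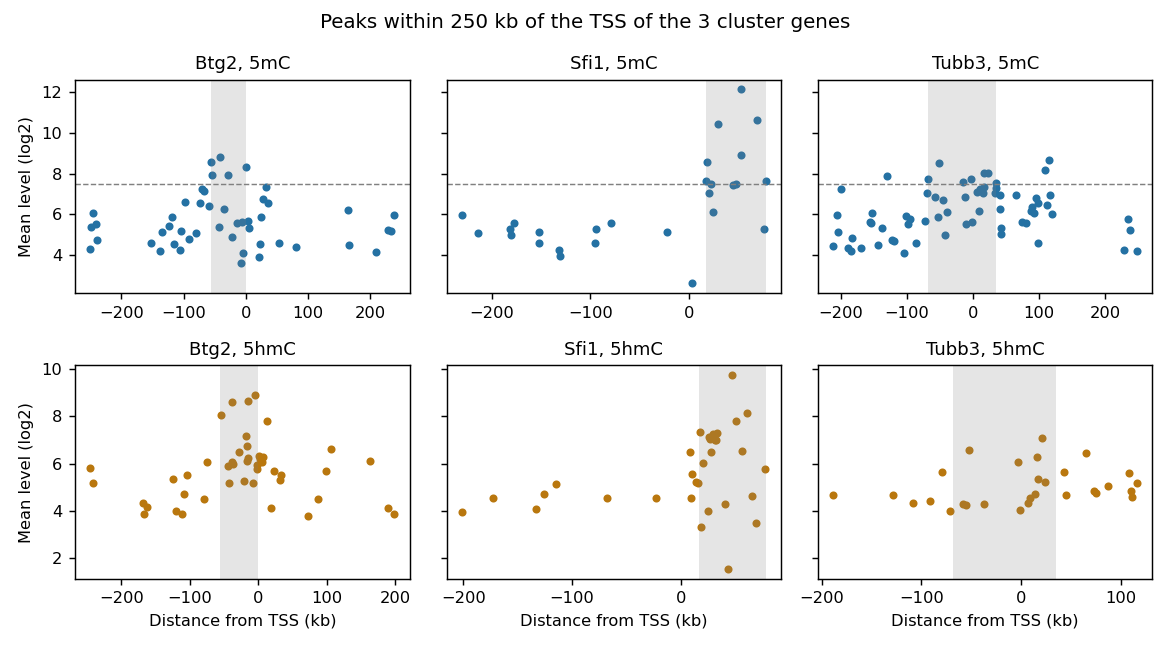
Mean level in log2 (y axis) of each 5mC peak (top) and 5hmC peak (bottom) within 250 kb of the TSS of Btg2, Sfi1, and Tubb3 (x axis, distance in kb, positive in the direction of transcription), with the cluster shaded and the threshold of 7.5 dashed for 5mC. Peaks at or above 7.5 gather in the shaded spans, and further ones lie outside them at Tubb3.

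Expression of the nearest genes was close to that of all genes of the table. For the 546 genes, the median expression score was 463, 446, and 473 in PP, DP, and neurons, as compared with 478, 491, and 466 over all 14361 genes. A mean score below 50 was found for 153 genes (28.0%), the same share as over all genes (28.0%). For the 29 genes with 1 of the highest peaks within 1 kb of their TSS, 8 were below 50 (27.6%). This compared with 15 of 39 genes (38.5%) in the next lower band and 47.3% of the 1515 genes with any 5mC peak there. Some of the 29 were gene models at peaks within another gene, such as Gm11400 within Sfi1 and Gm15726 within Mid1. Whether the score of such a model is its own was not tested. On the log2 scale with 50 added to each score, 87 of the 546 genes were at least 2-fold higher in neurons than in PP (15.9%) and 64 were lower (11.7%), compared with 14.7% and 12.5% of all genes. The highest scores were those of Xist, with 69376, 74472, and 51258 in PP, DP, and neurons, and of Uba1, the ubiquitin-activating enzyme, with 24720, 28737, and 53478. The lowest were those of Btnl9, with 2.7, 0.6, and 1.3, and of Gm11668, with 0, 4.8, and 0.

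Several gene families and lists were looked up among the nearest genes. Their counts stand beside a share of 1.05% of all 5mC peaks, at which lists of this size hold few or none, so a count of 0 or 1 says nothing particular about a list. Of 48 5mC peaks near PP markers, 46 near neuron markers, and 45 near genes of the methylation and demethylation machinery, 0 were among the 576. Of 33 peaks near DP markers the 1 inside Btg2 was among them, and of 78 near markers of other cortical cell types 0. Of 121 peaks near imprinted genes there was 1, inside Trappc9, at 8.62, 8.59, and 8.55 in PP, DP, and neurons. Of 57 near germline genes known for promoter methylation there were 2. Tdrd1, of the piRNA pathway, had 7.52, 7.79, and 7.85 at a peak 3300 bp into the gene, and Tdrd9, of the same pathway, had 7.59, 7.54, and 7.40 at 118 bp from its TSS. Xist, the RNA of the inactive X chromosome, was the 1 member of the 7 peaks near genes of the X inactivation centre and of the 26 near control genes of the study. Its peak, 663 bp into the gene and also within the span of Tsix, had 7.82, 7.56, and 7.55.

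Numbered Zfp zinc finger genes were nearest to 13 of the highest peaks, or 1.88% of their 693 5mC peaks, next to 1.05% in the whole table. The highest were inside Zfp161, with 8.25, 8.39, and 8.32 in PP, DP, and neurons, and inside Zfp27, with 8.35, 8.35, and 8.09. Solute carriers had 7 of 925 peaks (0.76%), the highest inside Slc37a3 at 7.74 and upstream of Slc1a5, a glutamine transporter, at 7.73 on average. Voltage-gated ion channels had 2 of 234 (0.85%), among them a peak inside Cacna2d4 at 7.52. Collagens had 2 of 184 (1.09%), inside Col6a3 at 7.92 and Col6a5 at 7.60. Protocadherins with 70 peaks, homeobox genes with 116, and histone genes with 6 had 0.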

How the data were processed

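MeDIP and hMeDIP were performed by the authors on 3 sorted cell types, and the labels list 12 samples (6 immunoprecipitated, 6 input). Per the submitters' processing notes and the methods, reads were aligned to mm10 with BWA 0.7.8-r455, peaks were called with SICER 1.1, those found in all replicates of a cell type were merged, and peaks overlapping repeats were left out. The deposited levels are log2 of mean normalized reads from DiffBind, averaged over replicates by the authors. The methods name a TMM score of the reads themselves, and whether the deposited level columns are this score, without input subtracted, is not given in the sources used here. The deposited expression columns hold a score per cell type from an earlier RNA-seq study of the authors, whose scale is not named. The distance columns hold bp to the nearest TSS, annotated with HOMER 4.7. The authors' columns of fold changes and p-values, between cell types and for expression, were not used.

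All 55085 5mC and 47478 5hmC rows were kept. Members and gene lists were chosen with earlier results of these data known. Widths are end minus start. Differences were centred on the median of all peaks, and 1.5-fold was the call. Named were the 10 highest peaks, those at the threshold, the 2 largest differences per pair and direction, the 3 highest in 5hmC, nearest to and farthest from a TSS, genes with the most peaks, the extremes of expression, and genes of 16 lists, and some peaks that this rule names are not reported here. Where several 5hmC peaks overlapped, the highest was taken. The paper gives the reads per sample, but the number of reads behind each level is unknown, so its precision cannot be given. Steps were tested on simulated data and run in python 3.11.15 with pandas 2.3.3 and numpy 2.4.6. Alternatives were other thresholds, level per 100 bp (also with a read length of 75 bp added to the width), autosomes only, repeated peaks once, no centring, other folds, overlaps, and expression filters, and, added after the data were seen, leaving out the 3 clusters.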

Additional observations from a re-analysis of the deposited data

How the results depend on the processing

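Of 62 values under alternatives, 48 kept their direction and stayed within the 95% interval of the value reported, or within 1.5 times of a count. The interval was taken across peaks or genes, which are not replicates, so it holds no replicate error. Taking repeated peaks once left every value as it was, since no peak among the highest was a repeat. Those values are counted among the 48 and do not test the result. A threshold of 8.0 left 144 peaks, with a median width of 124.5 bp, 27.8% overlapping 5hmC, a median difference of 0.10 from PP to neurons, and 1 changed peak, and a threshold of 7.0 gave 1779 peaks. Ranked by level per 100 bp, or with the read length added, the median width was 120 and 122 bp, since narrower peaks rank higher by construction. Without centring, the median differences turned to -0.11 from DP to neurons and -0.094 from PP to neurons, and 13 peaks changed in place of 8, and at 2-fold 1 changed. When 0.5 of the 5mC peak had to be covered, 19.8% overlapped 5hmC. With only peaks inside their gene, the median expression score over cell types was 1069 in place of 561, and the cause was not tested. No value for all 5mC peaks inside their gene is given beside it, so nothing particular to these peaks is read from it. Without the 20 peaks of the 3 clusters, chosen after the data were seen, no value left its range. When clusters were chained at up to 100 kb, also after the data were seen, 5 were found. CpG density over all peaks was not run for lack of a genome, and so none of its alternatives. No paired analysis was possible because the result comes from no test and the tables carry 1 mean per cell type. For the same reason no replicate could be left out.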

Other observations

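Chromosome X, whose inactive copy carries dense methylation at CpG islands in females, held 10 of the 576 peaks among its 799 5mC peaks, or 1.25%. Apart from Pak3 and the peak of Gm15726 they lay between 7.53 and 7.99 in mean level. They included a peak inside Suv39h1, a histone methyltransferase gene, with 7.39, 7.61, and 7.60 in PP, DP, and neurons, and a peak near Gm15191, within Huwe1, with 7.80, 7.62, and 7.82. The centred median difference from DP to neurons was 0.17 over the 10 and 0.11 over all 799, and 7 and 511 of them were above 0.

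A higher 5hmC level in neurons, with a 5mC difference short of 1.5-fold, was found 114493 bp upstream of Dusp4, a MAP kinase phosphatase. There, 5hmC was 1.55, 2.51, and 5.00 in PP, DP, and neurons and 5mC was 8.42, 8.34, and 8.03. Downstream of the start of Rps15a-ps6, within Nudcd3, 5hmC was 2.13, 3.04, and 5.98 and 5mC 7.72, 7.71, and 7.40. The PP values of 1.55 and 2.13 were low, the lowest 5hmC level in PP being -0.05. Lower 5hmC in neurons was seen inside Sart1, a splicing factor, with 4.87, 4.35, and 3.74 in 5hmC and 7.71, 7.59, and 7.63 in 5mC. These loci were chosen after their values were seen, and no difference was tested.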
